A study of Schizosaccharomyces pombe with 14 samples.

Results

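The rRNA genes described here are the rows of the count table whose identifier begins with SPRRNA. There are 49 such rows among 7049 in all, and they were chosen by identifier alone. They comprise 36 rows of 5S rRNA, 5 of 18S, 3 of 28S and 3 of 5.8S rRNA, and 2 rows on the mitochondrial genome. The table holds 14 RNA-seq libraries of the fission yeast Schizosaccharomyces pombe from 3 experiments that did not all use the same rRNA depletion kit, and libraries were compared only within an experiment. Pac1, whose loss the study examined, is an RNase III, an endonuclease that cuts double-stranded RNA.

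In the pac1-ts experiment, 2 clones with the allele pac1-G1024A (pac1-ts, each with its own strain number) and 1 WT strain each gave a library at 30°C and another at 37°C, the second after 2 h of shift. All of these strains are h+ and carry ade6M210, leu1-32, ura4-D18 and his3-D1, and WT has 1 library per temperature. In the anchor-away experiment, 2 libraries of Pac1-AA (Pac1-FRB-GFP::natMX6) and 2 of CTL, which lacks that tag, came from cells at 30°C that had rapamycin at 2.5 µg/ml for 2 h. Both strains are h- and also carry torSE::KanMX6, fkh1::URA+, the anchor nmt1-rpl13-2FKBP12, ura4-D18, leu1-32 and ade6-M210. In the thiamine experiment, the strains Pnmt81-dis3, Pnmt81-dhp1, Pnmt81-dhp1 Pnmt81-dis3 and WT were each represented by 1 library from cells at 30°C that were in 60 µM thiamine for 12 to 15 h, which represses the nmt81 promoter. All 4 of these strains carry leu1-32, ura4-D18 and his3-D1. WT is h+ with ade6-M216, and Pnmt81-dhp1 is h- with ade6-M210. The labels leave both the mating type and the ade6 allele of the strains with Pnmt81-dis3 unresolved. The nmt81 insertions carry the marker kanMX6, except that of dis3 in Pnmt81-dhp1 Pnmt81-dis3, which carries natMX6.

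Eukaryotic ribosomes contain 18S rRNA in the small subunit, and 28S, 5.8S and 5S rRNA in the large subunit. RNA polymerase I transcribes 18S, 5.8S and 28S as a single precursor from tandem rDNA repeats, and endonucleases and exonucleases then remove the spacers. In fission yeast the repeats lie at both ends of chromosome III, the 5S genes are scattered over the genome and transcribed by RNA polymerase III, and Pac1 is known to cut a stem-loop in the 3′ external transcribed spacer, just past the 28S sequence. Every library had been depleted of rRNA, so the counts are of rRNA fragments left after depletion, and less rRNA in the cell cannot be told apart from more complete depletion.

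The assembly shows only a few of the rDNA units, and these are near-identical. The 3 28S rows (SPRRNA.47, SPRRNA.48 and SPRRNA.49) have the same 3485 bases, and the 3 5.8S rows (SPRRNA.50, SPRRNA.51 and SPRRNA.52) the same 165 bases. Of the 18S rows, SPRRNA.43, SPRRNA.44 and SPRRNA.46 have the same 1842 bases, SPRRNA.45 is a piece of 1001 of these bases, and SPRRNA.42 is a piece of 1390 bases with 1 mismatch. Only SPRRNA.42 among the 11 rDNA rows held any 50-base sequence that occurs once in the genome. The options of the counting step in the study's methods name no counting of fragments that align to several places, and a fragment wholly inside the other 10 rows has no unique place.

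SPRRNA.49, the 28S row that the results below turn on, lies at chrIII:2443713-2447197 on the forward strand. Its nearest unique 50-base windows are separated from it by 101 bases on the 5′ side and by 93 bases on the 3′ side. The end of the row and the spacer after it, taken from RefSeq's ASM294v3 like every sequence here, are shown for the forward-strand unit at the right end of chromosome III (chrIII:2447168-2447397) and for the reverse-strand unit of SPRRNA.48 at the left end (chrIII:16727-16956), whose spacer is the same as that of SPRRNA.47 over this stretch. The first 30 bases of each belong to the 28S row and the other 200 follow it, and capitals mark the bases of the SPRRNA.49 copy that have no partner in the alignment with the SPRRNA.48 copy.
SPRRNA.49: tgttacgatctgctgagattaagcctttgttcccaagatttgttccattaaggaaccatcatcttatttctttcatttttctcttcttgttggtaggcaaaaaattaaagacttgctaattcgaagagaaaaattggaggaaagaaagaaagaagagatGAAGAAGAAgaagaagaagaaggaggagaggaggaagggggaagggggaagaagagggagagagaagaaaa
SPRRNA.48: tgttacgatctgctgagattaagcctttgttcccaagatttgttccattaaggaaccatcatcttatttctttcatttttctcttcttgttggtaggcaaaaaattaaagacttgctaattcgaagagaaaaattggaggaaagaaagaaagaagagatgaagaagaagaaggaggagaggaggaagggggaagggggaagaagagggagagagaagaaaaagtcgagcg

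The first unpaired base lies 130 bases past the row, in a run of GAA repeats that is longer in the right-hand copy. The 150 bases after the row folded to a predicted minimum free energy of -40.5 kcal/mol with 86 paired bases for SPRRNA.49, and to -40.9 kcal/mol with 92 paired bases for SPRRNA.48. For SPRRNA.47, SPRRNA.48, SPRRNA.50, SPRRNA.51, SPRRNA.42, SPRRNA.43 and SPRRNA.45 no unique window from outside the row lay within 2000 bases of either end. SPRRNA.48 nevertheless held 60427 fragments over the 14 libraries, against 597141 on SPRRNA.49 and 1917 on SPRRNA.47. How fragments came to be placed on 1 of several identical rows was not tested, and a difference between these rows is a difference in where fragments were counted.

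**Figure D1:**
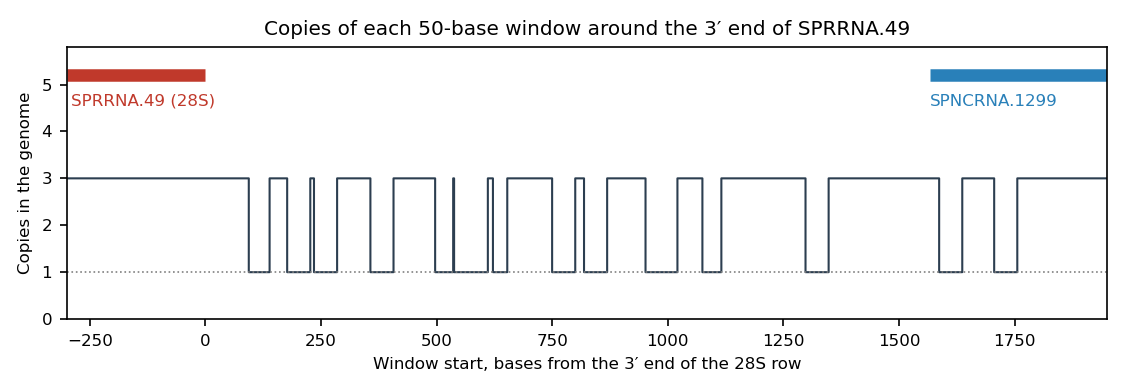
Number of genomic copies of each 50-base window (y axis) against the distance of the window start from the 3′ end of SPRRNA.49 (x axis, bases), with the 28S row and the downstream non-coding row SPNCRNA.1299 drawn as bars. Windows in the plotted end of the row have 3 copies, and 93 bases separate its end from the first unique window.

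The 5.8S row SPRRNA.52, at chrIII:2443248-2443412 in the same forward-strand unit, has unique 50-base windows that cross its 3′ end. It is shown because this spacer separates 5.8S from 28S in the precursor. The stretch chrIII:2443353-2443472 is shown, with the last 60 bases of the row first and the capital marking the base that is unpaired with the unit of SPRRNA.51, 22 bases past the row in the second internal transcribed spacer.
SPRRNA.52: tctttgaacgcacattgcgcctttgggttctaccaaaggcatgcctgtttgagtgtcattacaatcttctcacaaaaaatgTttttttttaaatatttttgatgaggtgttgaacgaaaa

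The 36 5S rows are less alike, because the annotated rows take in different lengths of flank. All of SPRRNA.10 served as the core, which was looked for in each row and its flanks. It was found exactly at 23 rows (SPRRNA.10 included), 11 had substitutions and 2 (SPRRNA.41 and SPRRNA.54) aligned only with gaps. At SPRRNA.55, which is among the 23, the exact core begins before the annotated row. The shared core (chrI:149658-149776, forward strand) is printed with the cores of SPRRNA.37 (chrII:4161619-4161737, reverse strand) and SPRRNA.53 (chrI:1563475-1563593, forward strand), the 5S rows with the most fragments. The cores of SPRRNA.11 (chrI:456527-456645, forward strand) and SPRRNA.04 (chrIII:1474259-1474377, reverse strand) are added because both rows were at 0 in the WT thiamine library. Capitals mark bases that differ from the shared core.
SPRRNA.10: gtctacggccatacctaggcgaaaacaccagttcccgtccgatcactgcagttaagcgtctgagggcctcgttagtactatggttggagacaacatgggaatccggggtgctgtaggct
SPRRNA.37: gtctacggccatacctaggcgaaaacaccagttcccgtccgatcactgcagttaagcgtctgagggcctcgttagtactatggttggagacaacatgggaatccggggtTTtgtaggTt
SPRRNA.53: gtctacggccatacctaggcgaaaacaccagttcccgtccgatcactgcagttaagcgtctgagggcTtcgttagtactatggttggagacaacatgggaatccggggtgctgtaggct
SPRRNA.11: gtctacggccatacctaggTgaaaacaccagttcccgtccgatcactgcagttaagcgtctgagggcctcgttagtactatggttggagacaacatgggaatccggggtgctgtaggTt
SPRRNA.04: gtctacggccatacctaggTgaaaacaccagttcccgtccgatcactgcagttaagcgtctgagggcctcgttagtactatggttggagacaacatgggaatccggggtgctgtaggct

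Counted from 1 at the 5′ end of the core, the changes are G110T, C111T and C118T in SPRRNA.37, C68T in SPRRNA.53, C20T and C118T in SPRRNA.11 and C20T in SPRRNA.04 and SPRRNA.05. SPRRNA.12 has G1A, C39T and C118T, and SPRRNA.30 and SPRRNA.40 share T12C. A run of at least 4 T, the letters at which RNA polymerase III commonly stops, lay within 40 bases after the core in 35 of the 36 rows (97.2%), whereas 32.6% of all 40-base windows of the genome hold such a run. The longest run in that window was 3 to 10 T long.

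All rRNA rows together took 11.3% to 17.6% of the counted fragments in the pac1-ts experiment, where the libraries held 15997568 to 17743083 fragments. They took 0.128% to 0.367% in the anchor-away experiment (19877576 to 53258725 fragments) and 0.930% to 3.27% in the thiamine experiment (6836270 to 9470347 fragments). The largest rows by far were the mitochondrial ones, SPRRNA.01 with 8126861 and SPRRNA.02 with 6342922 fragments over the 14 libraries. They span bases 1 to 2822 and 3131 to 4552 of the mitochondrial genome and hold the large and small mitochondrial rRNA. The mitochondrial rows made up 94.9% to 97.9% of rRNA fragments in the pac1-ts experiment, 82.7% to 97.0% in the anchor-away experiment and 15.4% to 54.6% in the thiamine experiment. Among the nuclear rows, SPRRNA.49 was followed by SPRRNA.52 with 123565 fragments, SPRRNA.46 with 107971 and SPRRNA.44 with 105404, and SPRRNA.50 had 1.

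The 5S rows held far fewer fragments. In 5 of them (SPRRNA.07, SPRRNA.10, SPRRNA.13, SPRRNA.15 and SPRRNA.35) another gene covers the row on the same strand, and these had 0 to 5 fragments over the 14 libraries, 4 of them none at all. The other 31 rows had 108 to 1242 fragments, with a median of 515. Rows with and without a unique window did not separate by count, since the 9 of these 31 without one had 250 to 965 fragments and the 22 with one had 108 to 1242. Over the 31 rows the number of unique windows and the fragments in the pac1-ts experiment had a Spearman rho of 0.067, a description across rows that share libraries and sequence.

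The pac1-ts experiment asked how RNA levels differ when Pac1 is thermosensitive, before and after a shift to a higher temperature. The clearest difference among the rRNA genes was on the 28S row SPRRNA.49, which was higher in both pac1-ts clones than in WT at both temperatures and further apart at 37°C. Most 5S rows had somewhat higher values in pac1-ts, and none of them passed both thresholds. The 18S, 5.8S and mitochondrial rows and the other 28S row with counts showed no called difference between the strains.

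A row was called where the log2 fold change was above 1 in size with an adjusted p below 0.01 in edgeR's quasi-likelihood test, fitted over all rows that passed a filter on low counts. The filter let through 42 of the 49 rRNA rows in the pac1-ts experiment, and the 7 others are the 5 overlapped 5S rows, SPRRNA.47 and SPRRNA.50. Of the 42, 1 was called between pac1-ts and WT at 30°C, 1 at 37°C and 1 for the interaction of strain and temperature, SPRRNA.49 each time. Over all 6728 rows tested, 2.41% were called at 30°C, 2.85% at 37°C and 0.996% for the interaction. Without any 1 of the 4 pac1-ts libraries the counts of called rRNA rows were 2 to 7 at 30°C (7 without clone 1 at 30°C), 2 to 3 at 37°C and 2 for the interaction, and the shares of all rows called were 2.42% to 3.89%, 2.77% to 3.50% and 1.44% to 1.68%. The 42 rows had median log2 fold changes of 0.65 at 30°C and 0.55 at 37°C, against -0.01 and 0.00 over all rows tested. WT had a single library per temperature, so its spread was taken to be that of the clones.

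SPRRNA.49 had 2995 and 2017 CPM (a rate relative to all fragments counted in the library, after TMM scaling) in pac1-ts clones 1 and 2 at 30°C, against 587 CPM in WT. At 37°C it had 5591 and 5515 CPM in the clones, against 385 CPM in WT. Every pac1-ts library thus lay above both WT libraries, and the clones were closer to each other at 37°C than at 30°C. The log2 fold change was 2.09 at 30°C (SE 0.22, adjusted p = 0.0001) and 3.85 at 37°C (SE 0.24, adjusted p = 1.46e-06). The fold change was larger at 37°C by 1.76 on the log2 scale (SE 0.28, adjusted p = 0.0064), and this call was lost with DESeq2, with RLE factors or with a mean count of at least 50, under which the value was 1.71 to 1.74. Between temperatures, the row rose by 1.15 in pac1-ts at 37°C over 30°C (SE 0.16, adjusted p = 8.97e-05, or 0.89 without clone 2 at 30°C), whereas in WT the difference was -0.61 (SE 0.23, adjusted p = 0.048), which did not pass.

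SPRRNA.48, identical in sequence to SPRRNA.49, did not follow it. It had 63.1 and 67.0 CPM in pac1-ts at 30°C against 75.3 CPM in WT, and 27.5 and 39.9 CPM in pac1-ts at 37°C against 44.3 CPM in WT. Here each pac1-ts library lay below WT of its temperature, with log2 fold changes of -0.21 (SE 0.16, adjusted p = 0.345) and -0.40 (SE 0.16, adjusted p = 0.094). At 37°C against 30°C the row differed by -0.95 in pac1-ts (SE 0.13, adjusted p = 9.21e-05) and by -0.76 in WT (SE 0.18, adjusted p = 0.0059), both short of the fold threshold. SPRRNA.47 had 0 fragments in all 6 libraries, and a count of 0 allows up to 0.169 to 0.188 CPM at these depths.

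**Figure D2:**
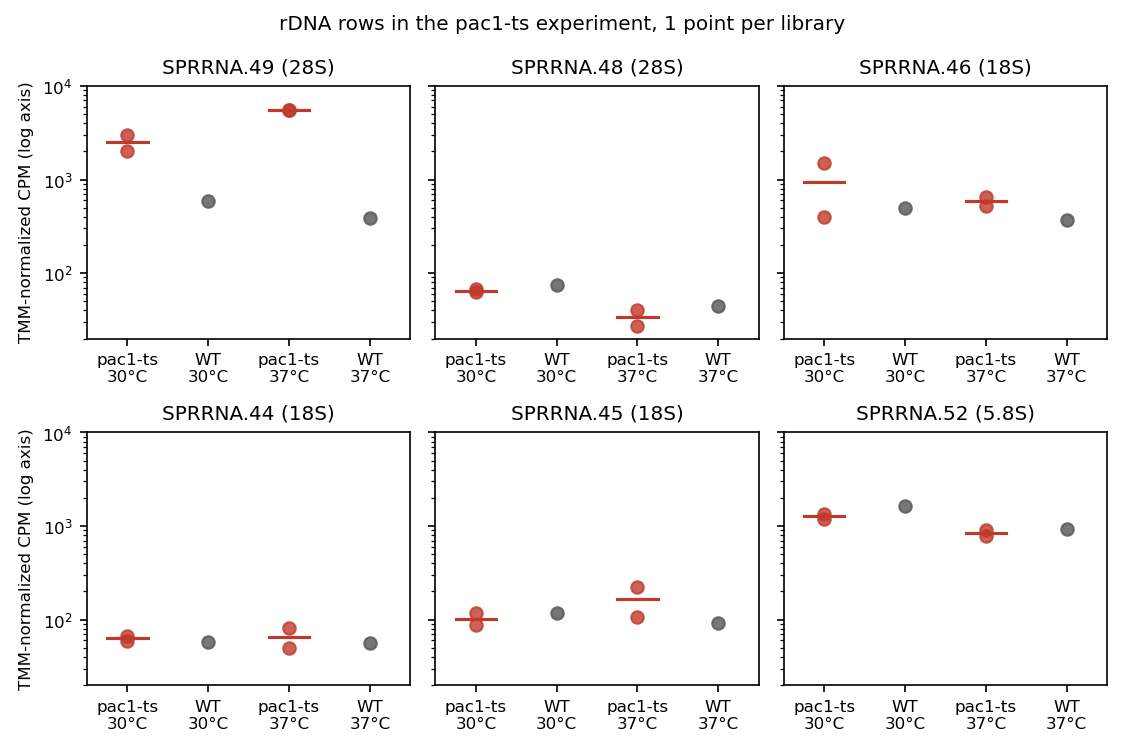
TMM-scaled CPM (y axis, log scale) of 6 rDNA rows in the pac1-ts experiment, with 1 point per library, red for pac1-ts and grey for WT, and a line at the pac1-ts mean. SPRRNA.49 in pac1-ts sits between 2017 and 5591 CPM, above WT at 385 and 587 CPM, while the other 5 rows show smaller gaps or overlap.

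Among the 18S rows, SPRRNA.46 had 1505 and 400 CPM in pac1-ts at 30°C against 493 CPM in WT, so that the clones fell on either side of WT. At 37°C it had 656 and 516 CPM in pac1-ts and 371 CPM in WT. The log2 fold changes were 0.95 at 30°C (SE 0.52, adjusted p = 0.203), with 1.61 without clone 2 and -0.30 without clone 1, and 0.66 at 37°C (SE 0.52, adjusted p = 0.362). SPRRNA.44 was nearly level, at 66.1 and 59.6 CPM in pac1-ts and 57.9 CPM in WT at 30°C, and at 50.1 and 81.6 CPM in pac1-ts and 56.4 CPM in WT at 37°C. SPRRNA.45 had 117 and 87.0 CPM in pac1-ts against 117 CPM in WT at 30°C, and 108 and 225 CPM in pac1-ts against 92.5 CPM in WT at 37°C. Its log2 fold change at 37°C was 0.85 (SE 0.33, adjusted p = 0.079), with 0.19 without clone 2 at 37°C and 1.24, a call, without clone 1 at 37°C. SPRRNA.42, the piece with its own unique sequence, rested on 31, 16, 37 and 70 fragments in pac1-ts against 7 and 18 in WT, and its log2 fold changes of 1.73 (SE 0.78, adjusted p = 0.129) and 1.62 (SE 0.56, adjusted p = 0.053) did not pass.

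The 5.8S row SPRRNA.52 had 1357 and 1183 CPM in pac1-ts and 1644 CPM in WT at 30°C, and 915 and 784 CPM in pac1-ts and 929 CPM in WT at 37°C. All 4 pac1-ts libraries were below WT of their temperature, by less than the test could separate (log2 fold changes of -0.37 at 30°C, adjusted p = 0.052, and -0.13 at 37°C, adjusted p = 0.473). The 37°C libraries were below the 30°C libraries in each strain, by -0.58 in pac1-ts (SE 0.10, adjusted p = 0.00057) and -0.82 in WT (SE 0.15, adjusted p = 0.001) on the log2 scale, which is under the fold threshold. SPRRNA.51 was uneven between clones, at 32.7 and 10.6 CPM in pac1-ts against 21.5 CPM in WT at 30°C and at 4.80 and 22.6 CPM in pac1-ts against 30.9 CPM in WT at 37°C.

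The make-up of nuclear rRNA counts includes SPRRNA.49, so its direction is not separate from that of the row. In clone 1 at 37°C, SPRRNA.49 held 107177 of the 107704 fragments on 28S rows, and nuclear rRNA held 144160. The 28S rows made up 48.7% and 52.1% of nuclear rRNA fragments in pac1-ts and 21.4% in WT at 30°C, and 74.7% and 75.2% in pac1-ts and 21.1% in WT at 37°C. Nuclear rRNA as a whole, SPRRNA.49 included, took 0.553% and 0.372% of counted fragments in pac1-ts at 30°C against 0.268% in WT, and 0.828% and 0.815% in pac1-ts at 37°C against 0.236% in WT. Outside the 28S rows the rise was not uniform. The 18S sum was 1697 and 551 CPM in pac1-ts against 672 CPM in WT at 30°C, and 824 and 834 CPM against 524 CPM at 37°C. The mitochondrial rows SPRRNA.01 and SPRRNA.02 also had more CPM in all 4 pac1-ts libraries than in WT of the same temperature, and their part in the nuclear values was not tested. SPRRNA.01 had 90515 and 87636 CPM in pac1-ts against 67921 CPM in WT at 30°C, and 80579 and 86222 CPM in pac1-ts against 56595 CPM in WT at 37°C. Its log2 fold changes of 0.39 (SE 0.37, adjusted p = 0.462) and 0.56 (SE 0.37, adjusted p = 0.290) did not pass, nor did those of SPRRNA.02, 0.25 (SE 0.34, adjusted p = 0.609) and 0.68 (SE 0.35, adjusted p = 0.168).

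The 5S rows leaned one way. Of the 31 that passed the filter, 30 had a log2 fold change above 0 at 30°C and 30 at 37°C, with medians of 0.75 and 0.50, while 49.1% and 50.5% of all rows tested were above 0. In 28 of the 31, all 4 pac1-ts libraries lay above WT of the same temperature, a pattern held by 29.6% of all rows tested. The rows share sequence and libraries, and are not 31 separate measurements. None was called, while 13 had an unadjusted p under 0.05 at 30°C and 9 at 37°C, against 38.1% and 38.7% of all rows tested, so that these counts do not set the 5S rows apart.

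SPRRNA.37, the 5S row with the most fragments (G110T, C111T and C118T in its core), had 11.6 and 14.4 CPM in pac1-ts against 6.69 CPM in WT at 30°C. At 37°C it had 14.2 and 14.8 CPM in pac1-ts and 8.30 CPM in WT. The groups did not overlap, and the log2 fold changes were 0.96 (SE 0.21, adjusted p = 0.0094) and 0.81 (SE 0.20, adjusted p = 0.013), of which the first missed the fold threshold and the second both thresholds. SPRRNA.53 had 6.78 and 8.99 CPM in pac1-ts and 5.19 CPM in WT at 30°C, and 9.34 and 12.5 CPM in pac1-ts and 7.04 CPM in WT at 37°C (log2 fold changes of 0.60 and 0.63). SPRRNA.20 had 7.70 and 9.88 CPM in pac1-ts and 5.13 CPM in WT at 30°C, and 9.39 and 10.4 CPM in pac1-ts and 8.35 CPM in WT at 37°C (0.78 and 0.25). SPRRNA.31 had 4.02 and 4.85 CPM in pac1-ts and 3.12 CPM in WT at 30°C, and 4.17 and 5.83 CPM in pac1-ts and 2.78 CPM in WT at 37°C (0.51 and 0.84). In all 4 of these rows each pac1-ts library was above WT of its temperature, and SPRRNA.53, SPRRNA.20 and SPRRNA.31 did not pass.

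**Figure D3:**
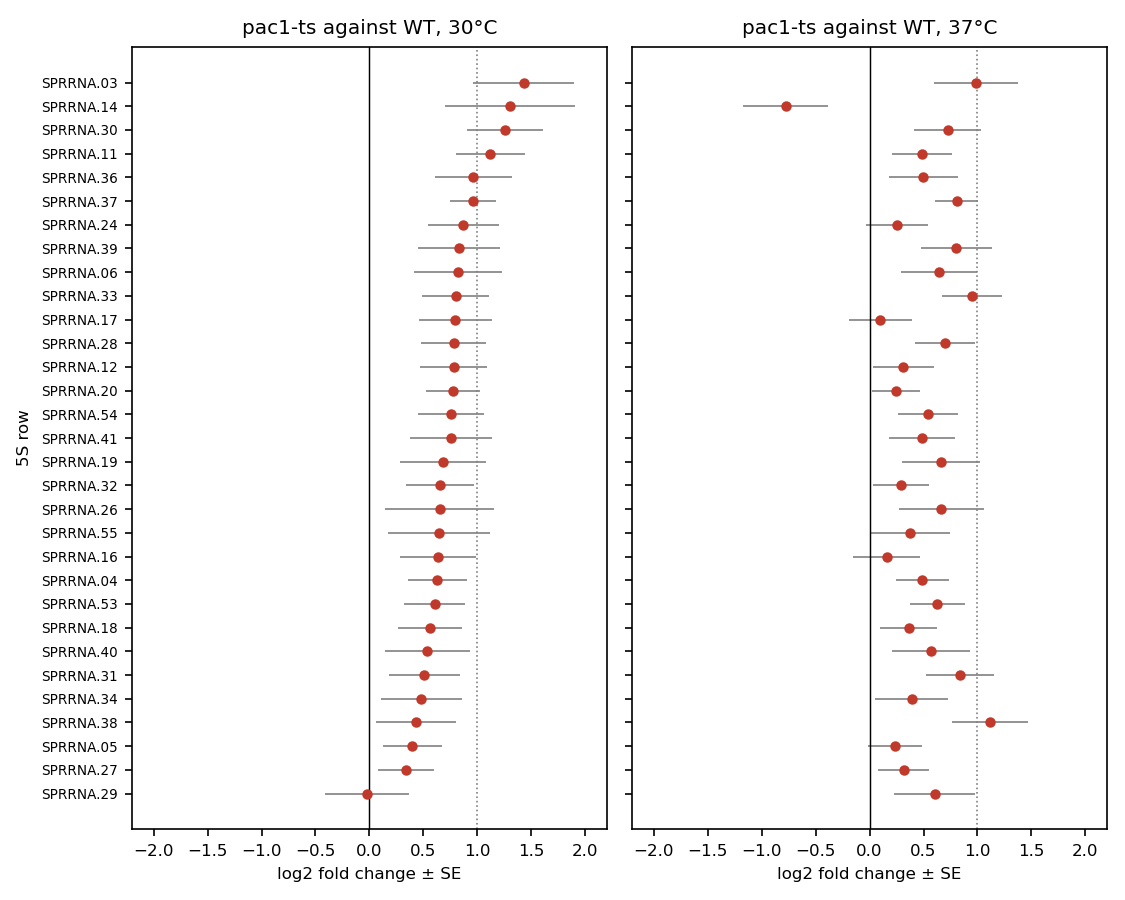
Log2 fold change of pac1-ts against WT (x axis, points, with bars of 1 standard error) of the 31 5S rows that passed the filter, at 30°C (left) and 37°C (right), ordered by the value at 30°C, with a dotted line at the threshold of 1. At each temperature 30 of the 31 points lie above 0, and SPRRNA.29 at 30°C and SPRRNA.14 at 37°C lie below it.

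Read together as 1 sum, a choice made after seeing the data, the 5S rows held 133 and 169 CPM in pac1-ts and 92.1 CPM in WT at 30°C, and 158 and 192 CPM in pac1-ts and 122 CPM in WT at 37°C. In a fit with the SPRRNA rows replaced by their class sums, the 5S log2 fold change was 0.72 at 30°C (SE 0.16, adjusted p = 0.0081) and 0.52 at 37°C (SE 0.16, adjusted p = 0.031), both under the fold threshold. The 28S sum differed by 1.96 and 3.70, the 18S sum by 0.75 (adjusted p = 0.221) and 0.66 (adjusted p = 0.271), and the 5.8S sum by -0.36 (adjusted p = 0.054) and -0.15 (adjusted p = 0.391). The interaction for the 5S sum was -0.20 (SE 0.22, adjusted p = 0.750).

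Each clone was sequenced at both temperatures, and with the clone as a block the number of called rows was 4 of 42 at 30°C and 3 of 42 at 37°C, against 3.66% of all rows tested at each temperature. Beside SPRRNA.49 these were SPRRNA.11 (1.11), SPRRNA.30 (1.25) and SPRRNA.03 (1.42) at 30°C, and SPRRNA.38 (1.11) and SPRRNA.42 (1.60) at 37°C, on the log2 scale. Without the block the 5S rows among them had 1.12 (adjusted p = 0.028), 1.26 (adjusted p = 0.026) and 1.43 (adjusted p = 0.047) at 30°C and 1.12 (adjusted p = 0.038) at 37°C. These 5S rows were named after their values were seen. SPRRNA.03, the row with the largest 5S value at 30°C, rested on 29 and 47 fragments in pac1-ts against 14 in WT.

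Between temperatures, 1 of the 42 rows was called in pac1-ts (SPRRNA.49) and 0 in WT, against 11.1% and 10.4% of all rows tested. In WT, 6 of the 42 had an unadjusted p under 0.05, against 51.4% of all rows tested, and DESeq2 called 0. The fit with the clone block called 1, against 11.3% of all rows tested, namely SPRRNA.14 (2.09, from 32 fragments at 37°C and 6 at 30°C). Leaving out 1 pac1-ts library gave 0 to 1 calls in WT (1 without either clone at 30°C or without clone 2 at 37°C) and 2 to 3 in pac1-ts. In 17 of the 31 5S rows the level at 37°C was above that at 30°C in all 3 strains, against 37.6% of all rows tested.

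The anchor-away experiment asked what follows when Pac1 is carried out of the nucleus for 2 h. No rRNA row was called there, and SPRRNA.49 was not set apart from the other rDNA rows. The filter let through 9 of the 49 rows, and 0 were called by edgeR or DESeq2, against 0.838% of all 6328 rows tested. Of the 9, 3 had an unadjusted p under 0.05, against 35.0% of all rows tested, and without CTL replicate 2 the number of calls was 3 (SPRRNA.01, SPRRNA.02 and SPRRNA.52). The median log2 fold change of the 9 rows was 0.32, against 0.00 over all rows tested.

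SPRRNA.49 had 118 and 175 CPM in Pac1-AA and 84.7 and 132 CPM in CTL, and the groups overlapped (log2 fold change 0.40, SE 0.20, adjusted p = 0.191). SPRRNA.48 had 6.32 and 11.8 CPM in Pac1-AA and 5.21 and 7.59 CPM in CTL (0.46, SE 0.29, adjusted p = 0.292). SPRRNA.46 had 11.3 and 14.7 CPM in Pac1-AA and 9.84 and 7.71 CPM in CTL, with no overlap (0.61, SE 0.15, adjusted p = 0.019), short of both thresholds. Both Pac1-AA libraries were above both CTL libraries in 2 of the 9 rows (SPRRNA.45 and SPRRNA.46), a pattern held by 31.7% of all rows tested, and below them in 2, the mitochondrial rows, against 30.8%. The 5.8S row SPRRNA.52 had 4.11 and 4.15 CPM in Pac1-AA and 9.43 and 3.58 CPM in CTL (-0.52, SE 0.33, adjusted p = 0.292).

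The mitochondrial rows separated CTL replicate 1 from the other 3 libraries. SPRRNA.02 had 730 and 568 CPM in Pac1-AA, against 2246 and 802 CPM in CTL, a log2 fold change of -1.23 (SE 0.36, adjusted p = 0.039). SPRRNA.01 had 469 and 450 CPM in Pac1-AA, against 1435 and 547 CPM in CTL, a log2 fold change of -1.11 (SE 0.33, adjusted p = 0.040). Without CTL replicate 1 these were -0.31 and -0.25, and DESeq2 gave adjusted p-values of 0.294 and 0.305 for all 4 libraries. The 5S rows are hardly seen in these libraries, with 24 and 30 fragments in Pac1-AA and 15 and 14 in CTL over all 36 rows, and none passed the filter. All rRNA rows took 0.139% and 0.128% of fragments in Pac1-AA and 0.367% and 0.145% in CTL. Their means of 0.134% and 0.256% differed with an exact two-sided permutation p of 0.333, the smallest that 2 against 2 allows, and nuclear rRNA, at 0.0185% and 0.0131%, with an exact p of 0.667.

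**Figure D4:**
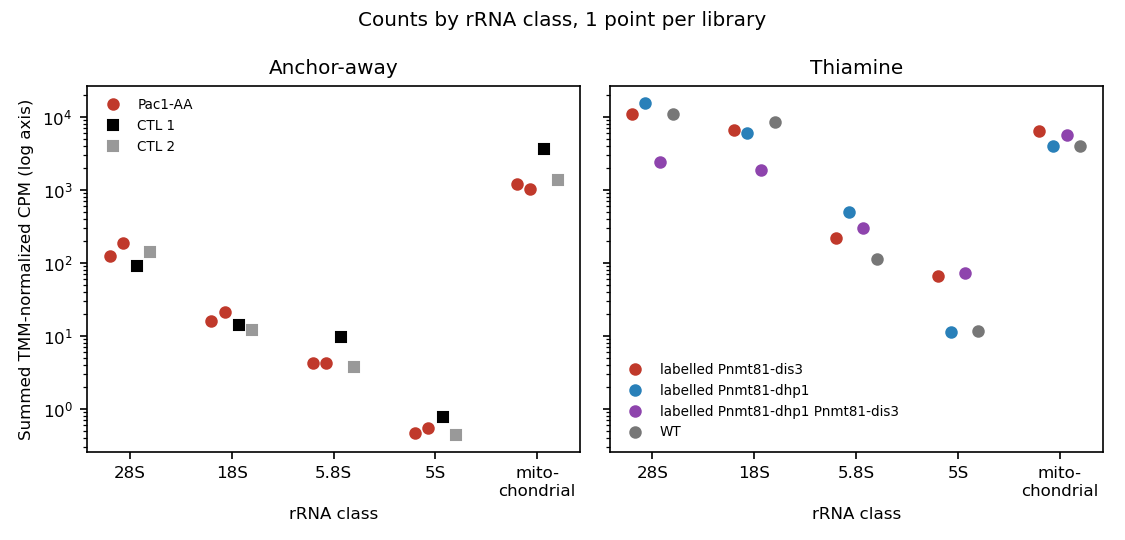
Summed TMM-scaled CPM (y axis, log scale) of each rRNA class, with 1 point per library, in the anchor-away experiment (left) and the thiamine experiment (right). On the left CTL replicate 1 stands highest in 5.8S, 5S and mitochondrial rRNA, and on the right the 5S sums of the libraries labelled Pnmt81-dis3 and Pnmt81-dhp1 Pnmt81-dis3 stand near 65.9 and 72.4 CPM against 11.5 CPM in WT.

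The thiamine experiment concerned dis3, the catalytic 3′ to 5′ exonuclease of the exosome, and dhp1, a nuclear 5′ to 3′ exonuclease. The RNA of the targeted genes did not follow the labels. dis3 had 1453, 1044 and 1868 fragments in the libraries labelled Pnmt81-dis3, Pnmt81-dhp1 and Pnmt81-dhp1 Pnmt81-dis3, against 1382 in WT, which is -0.35, -0.87 and 0.24 on the log2 scale after TMM scaling. dhp1 had 3507, 1041 and 2800 fragments in these libraries, against 1231 in WT, or 1.09, -0.71 and 0.99. The libraries are therefore named by their labels only. With 1 library per strain there is no replicate check and no test, and the 95% exact intervals given cover counting error only.

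Of the rRNA rows, 21 passed the filter. In the library labelled Pnmt81-dis3, 9 had a log2 ratio to WT above 1 and 2 below -1, against 25.2% and 19.7% of the 6340 rows that passed. In the library labelled Pnmt81-dhp1 these were 6 and 4, against 17.7% and 11.2%, and in that labelled Pnmt81-dhp1 Pnmt81-dis3 10 and 7, against 26.0% and 19.1%. Of the rows above 1, 8, 5 and 9 were 5S rows. Of the 9 5S rows that passed, 6 had fewer than 10 fragments in WT and passed only through the libraries where they are high, so these counts say nothing about the 5S rows. The contrasts share the WT library, and their values are given side by side.

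The 5S rows were higher in the libraries labelled Pnmt81-dis3 and Pnmt81-dhp1 Pnmt81-dis3, and near WT in that labelled Pnmt81-dhp1. Over all 36 rows they held 581, 104 and 545 fragments in the libraries labelled Pnmt81-dis3, Pnmt81-dhp1 and Pnmt81-dhp1 Pnmt81-dis3, against 76 in WT. The log2 ratio of these sums was 2.51 (95% interval 2.17 to 2.88) in the first, -0.02 (-0.46 to 0.43) in the second and 2.64 (2.30 to 3.02) in that labelled Pnmt81-dhp1 Pnmt81-dis3. Among the 31 rows not covered by another gene, those with more scaled fragments than WT numbered 20, 11 and 25, and those with fewer 4, 8 and 2. A further 7, 12 and 4 were at 0 in both libraries. Of the 31, 22 fell below the filter, and these held 50, 16 and 56 fragments in all against 9 in WT. The tally thus rests mostly on rows with few fragments, and no share over all rows was set beside it.

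SPRRNA.31 and SPRRNA.11 held the most 5S fragments in the library labelled Pnmt81-dis3. SPRRNA.31, an exact core with 121 annotated bases after it (chrII:783259-783377 for the core), had 220, 33 and 139 fragments in the libraries labelled Pnmt81-dis3, Pnmt81-dhp1 and Pnmt81-dhp1 Pnmt81-dis3, against 29 in WT. Its log2 ratios were 2.48 (1.94 to 3.12), -0.29 (-1.05 to 0.49) and 2.05 (1.48 to 2.70). SPRRNA.11, the row with C20T and C118T in its core, had 107, 2 and 81 fragments against 0 in WT. Set against a floor of 3 fragments for WT, it was at least 26.7-fold higher in the library labelled Pnmt81-dis3 and at least 23.6-fold higher in that labelled Pnmt81-dhp1 Pnmt81-dis3. It passed the filter only through these libraries, so that this pattern follows from how it was picked. SPRRNA.11 and SPRRNA.31 together held 327 fragments and the others of the 31 rows 253 in the library labelled Pnmt81-dis3. In that labelled Pnmt81-dhp1 Pnmt81-dis3 they held 220 and the others 325, and in WT 29 and 47.

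SPRRNA.04 and SPRRNA.38 were also at 0 in WT, with 31, 3 and 47 and with 20, 2 and 32 fragments in the libraries labelled Pnmt81-dis3, Pnmt81-dhp1 and Pnmt81-dhp1 Pnmt81-dis3. Against the floor these were at least 7.73-fold and 13.7-fold higher for SPRRNA.04, and 4.99-fold and 9.34-fold for SPRRNA.38, in the library labelled Pnmt81-dis3 and in that labelled Pnmt81-dhp1 Pnmt81-dis3. SPRRNA.05, which has the same C20T as SPRRNA.04, had 21, 0 and 30 fragments against 2 in WT. SPRRNA.04, SPRRNA.38 and SPRRNA.05 had at most 3 fragments in WT and in the library labelled Pnmt81-dhp1, and at least 20 in the others. They passed the filter only through the libraries where they are high, so that this shared pattern follows from how they were picked. SPRRNA.53 had 43, 5 and 54 fragments against 20 in WT, and SPRRNA.26 had 43, 7 and 64 against 10. SPRRNA.20 was close in the libraries other than WT, with 30, 26 and 29 fragments against 5 in WT, and SPRRNA.37 likewise had 15, 10 and 13 against 1. SPRRNA.20 and SPRRNA.37 also passed the filter only through libraries where they are high. SPRRNA.11, SPRRNA.04, SPRRNA.05, SPRRNA.38 and SPRRNA.26 were named after their values were seen.

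**Figure D5:**
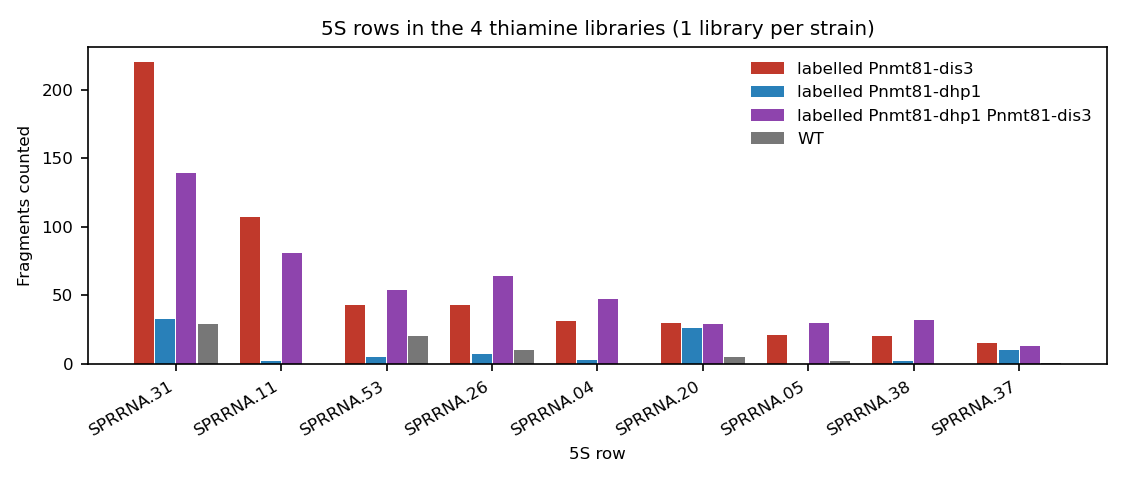
Fragments counted (y axis) on the 9 5S rows that passed the filter (x axis) in the 4 thiamine libraries, 1 bar per library and unscaled. SPRRNA.31 and SPRRNA.11 reach 220 and 107 fragments in the library labelled Pnmt81-dis3, against 29 and 0 in WT.

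The 5.8S row SPRRNA.52 was higher in all 3 libraries than in WT, with 1860, 4455 and 2235 fragments in those labelled Pnmt81-dis3, Pnmt81-dhp1 and Pnmt81-dhp1 Pnmt81-dis3, against 709 in WT. Its log2 ratios were 0.97 (0.85 to 1.10), 2.18 (2.07 to 2.30) and 1.46 (1.34 to 1.59). Here the library labelled Pnmt81-dhp1 stood highest, the reverse of the 5S rows.

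The 28S rows, and 4 of the 5 18S rows, had their lowest level in the library labelled Pnmt81-dhp1 Pnmt81-dis3. SPRRNA.49 had 80025, 124062 and 15683 fragments in the libraries labelled Pnmt81-dis3, Pnmt81-dhp1 and Pnmt81-dhp1 Pnmt81-dis3, against 57659 in WT, with log2 ratios of 0.05, 0.64 and -2.07. SPRRNA.48 had 16679, 19188 and 2723 fragments against 15268 in WT (-0.29, -0.14 and -2.68). SPRRNA.47, which had no fragments in the pac1-ts experiment, had 504, 684 and 50 against 669 in WT (-0.83, -0.44 and -3.92). In the library labelled Pnmt81-dhp1 Pnmt81-dis3 all 3 rows were below WT, and in that labelled Pnmt81-dhp1 SPRRNA.49 was above WT.

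Of the 18S rows, SPRRNA.44 had 37307, 27728 and 5413 fragments in the same 3 libraries against 28234 in WT (-0.02, -0.50 and -2.57). SPRRNA.46 had 7968, 16504 and 4069 against 12125 in WT (-1.02, -0.03 and -1.77). SPRRNA.45 had 8655, 6075 and 2185 against 10750 in WT (-0.73, -1.29 and -2.49), and SPRRNA.42 had 3931, 4575 and 2317 against 5920 in WT (-1.01, -0.84 and -1.55). SPRRNA.43 stood apart from the other 18S rows, with 429, 24 and 150 fragments against 140 in WT (1.19, -2.99 and -0.09). The class sums of 28S and 18S had log2 ratios of -2.19 and -2.21 in the library labelled Pnmt81-dhp1 Pnmt81-dis3. The mitochondrial rows had summed log2 ratios of 0.68, 0.01 and 0.48 in the 3 libraries. SPRRNA.01 had 34902, 17613 and 25233 fragments against 15235 in WT, and SPRRNA.02 had 22171, 19511 and 17427 against 11462 in WT.

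Genes that make or process rRNA were described from lists of their protein and RNA components. In Pac1-AA against CTL and in pac1-ts against WT at either temperature, the test called 0 of 17 genes of RNA polymerase I and its factors, 0 of 49 of the small-subunit processome, 0 of 41 of large-subunit processing, 0 of 17 of the exosome and its cofactors and 0 of 23 tested of RNA polymerase III and 5S factors. Their median log2 fold changes lay between -0.25 and 0.02. Of all rows tested, 0.838% were called for Pac1-AA, 2.41% for the strain difference at 30°C and 2.85% for that at 37°C. With shares this low, counts of 0 in lists of this size do not set these genes apart. Among 2 tested snoRNAs that act in rRNA cleavage and folding, snoU14 was called each time. It is a box C/D snoRNA required for 18S processing. On Northern blots the paper saw snoU14 precursors with extended 5′ ends build up when Pac1 was excluded from the nucleus. Counts per row do not separate these precursors from mature snoU14. snoU14 had 291 and 305 CPM in Pac1-AA against 54.5 and 49.8 CPM in CTL, a rise of 2.52 on the log2 scale (SE 0.045, adjusted p = 9.51e-10). In pac1-ts it had 637 and 574 CPM against 116 CPM in WT at 30°C, a rise of 2.39 (SE 0.17, adjusted p = 6.39e-06), and 1999 and 1492 CPM against 132 CPM in WT at 37°C, a rise of 3.73 (SE 0.19, adjusted p = 1.99e-07). The groups did not overlap in each case, and the strain difference was larger at 37°C than at 30°C by 1.34 (SE 0.22, adjusted p = 0.0071).

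Of 13 tested genes of RNase MRP and RNase P, the nucleases that cut rRNA and tRNA precursors, 1 was called in pac1-ts at 30°C, against 2.41% of all rows tested. This was rrk1, the RNase P RNA, which fell by 1.13 (SE 0.16, adjusted p = 0.00061) to 168 and 125 CPM against 320 CPM in WT. At 37°C it had 192 and 160 CPM in pac1-ts against 210 CPM in WT, without a call. In Pac1-AA it had 1386 and 1501 CPM against 2768 and 2551 CPM in CTL, again without a call. The paper lists rrk1 as lower in both mutants. Of 131 cytosolic ribosomal protein genes, 3 were called in Pac1-AA, against 0.838% of all rows tested. All 3 were lower (rpl1603 -1.23, rpl3002 -1.07 and rpl102 -1.07), and the list median was -0.47 against 0.00 over all rows. In pac1-ts 1 was called at each temperature, against 2.41% and 2.85% of all rows tested. It was rpl39, which rose by 1.15 at 30°C and 1.12 at 37°C. The list as a whole leaned the other way, with medians of -0.51 at 30°C and -0.42 at 37°C, against -0.01 and 0.00 over all rows. At 37°C against 30°C, 36 were called in pac1-ts and 50 in WT, against 11.1% and 10.4% of all rows tested. All were lower, with list medians of -0.87 and -0.93, and rps2601 led both with -1.86 and -1.68. In the thiamine experiment 74, 41 and 66 of the 131 had a log2 ratio below -1 in the libraries labelled Pnmt81-dis3, Pnmt81-dhp1 and Pnmt81-dhp1 Pnmt81-dis3, and 3, 0 and 5 above 1. Over all rows that passed the filter, 19.7%, 11.2% and 19.1% were below -1, and 25.2%, 17.7% and 26.0% above 1. Of the 49 genes of the small-subunit processome, 21, 2 and 16 had a ratio above 1 and 1, 7 and 2 below -1. Of the 17 genes of the exosome and its cofactors, 5, 1 and 3 were above 1 and 0, 1 and 0 below -1. Beside the shares over all rows, the counts above 1 do not set the exosome genes apart.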

How the data were processed

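The authors deposited raw counts of fragments per gene for 14 libraries. According to the study's methods, paired reads were trimmed (trimmomatic), aligned to the ASM294v2 genome (HISAT2) and assigned to genes on their own strand (featureCounts). RNA was depleted of rRNA with Zymo-Seq RiboFree in the pac1-ts experiment and with RiboZero before TruSeq in the others. All columns were mapped to samples by their labels. The members and gene lists were chosen with earlier results of these data known.

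Each experiment had its own fit by edgeR's quasi-likelihood test (edgeR 4.0.16, R 4.3.3, TMM factors). Rows entered by filterByExpr at a minimum count of 10, and p-values were adjusted over all of them by Benjamini and Hochberg. Strain was the term for the anchor-away libraries, and strain, temperature and their interaction for pac1-ts. Calls needed a log2 fold change beyond 1 in either direction with adjusted p under 0.01. Thiamine libraries were compared as log2 ratios of scaled counts plus 0.5 with 95% Clopper-Pearson intervals. Depth set the precision, and 3 counts equal 0.0563 CPM in the deepest and 0.439 CPM in the shallowest library. PCR duplicates are not independent molecules, so intervals and floors cover counting error only. No label tells whether the Pac1-AA and CTL replicates were separate cultures, so p-values measure only the spread between these libraries. The deviations of same-numbered libraries correlated with r = 0.528 in the pac1-ts experiment, where a number is a clone, and that number was used as a block.

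Sequences are RefSeq's (ASM294v3), and all 47 nuclear rRNA rows have the same coordinates there. Uniqueness was scored over 50-base windows on both strands. Folds used ViennaRNA 2.7.2. Named rows are up to 4 with the most fragments per class, every called row, and in each list up to 3 called genes. Of 7049 rows, 6844 matched a RefSeq locus tag. The tests were checked on simulated data. Alternatives were DESeq2 1.42.0, RLE factors, library totals, totals without SPRRNA rows, other filters and thresholds, a pseudocount of 5, an additive model, the replicate block and each replicate left out.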

Additional observations from a re-analysis of the deposited data

Results flagged for a closer look

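The strain difference of SPRRNA.49, the 28S row at the right end of chromosome III, was not the same at the 2 temperatures. The interaction term of the edgeR fit was 1.76 on the log2 scale (SE 0.28, adjusted p = 0.0064), with 5591 and 5515 CPM in the pac1-ts clones against 385 CPM in WT at 37°C, and 2995 and 2017 CPM in the clones against 587 CPM in WT at 30°C. Both clones were higher at 37°C than at 30°C, and the WT library was lower. DESeq2 gave 1.74 with an adjusted p of 0.0171.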

How the results depend on the processing

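Counts of called rRNA rows were small and moved with the settings. For Pac1-AA against CTL the 0 calls became 2 at an adjusted p below 0.05 and 0 to 3 when 1 replicate was left out. For pac1-ts against WT at 30°C the 1 call became 4 at an adjusted p below 0.05, 2 with no fold threshold and 1 to 7 with 1 replicate left out, and at 37°C it became 2 at an adjusted p below 0.05 and 1 to 3 with 1 replicate left out. The 1 interaction call became 0 with DESeq2, with RLE factors and with a mean count of at least 50, and 2 in each fit without 1 pac1-ts library. For 37°C against 30°C the 1 call in pac1-ts became 3 with no fold threshold and 1 to 3 with 1 replicate left out, and the 0 in WT became 1 with library totals or an adjusted p below 0.05, 2 with no fold threshold and 0 to 1 with 1 replicate left out. Fits without a replicate had few residual degrees of freedom, and a lone library was assumed to vary like the other groups. Paired by replicate block, the counts were 1 for Pac1-AA, where numbers are only shared (r = 0.083), 4 and 3 for pac1-ts at 30°C and 37°C, and 1 for the temperature in WT. For pac1-ts against WT the block removes the spread between clones from the error. The 10 rows past a log2 ratio of 1 in the library labelled Pnmt81-dhp1 became 5 with a pseudocount of 5. The share of 28S in rRNA of pac1-ts at 37°C, 3.63%, became 7.92% without SPRRNA.01, the row with the most fragments. The difference in rRNA share between Pac1-AA and CTL, -0.122 percentage points, ran from -0.233 to -0.0114 with 1 replicate left out. Library totals moved the median of all rows by up to 0.40. No called result changed direction, while the uncalled SPRRNA.46 at 30°C turned to -0.30 without clone 1 at 30°C. SPRRNA.49 kept its call in pac1-ts at both temperatures in every fit run, at 1.78 to 2.35 at 30°C and 3.78 to 3.86 at 37°C. The additive model gives 1 strain difference for both temperatures, which was 2.88. The causes were not tested. Depth limits rows with few fragments, and in the anchor-away experiment no 5S row could be compared.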

Other observations

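The non-coding row SPNCRNA.1299 begins 1567 bases past the end of SPRRNA.49 on the same strand (chrIII:2448764-2449506), and was looked at after the 28S values were seen. Stretches of it occur 3 times in the genome, beside stretches that occur once. It had 34.1 and 45.1 CPM in pac1-ts against 22.5 CPM in WT at 30°C, and 49.6 and 62.7 CPM in pac1-ts against 24.7 CPM in WT at 37°C. Both clones lay above WT at each temperature. By edgeR it rose by 1.18 on the log2 scale at 37°C (SE 0.18, adjusted p = 0.00088), and the 0.81 at 30°C (SE 0.19, adjusted p = 0.0106) did not pass. In Pac1-AA it had 0.211 and 0.289 CPM against 0.365 and 0.280 CPM in CTL.

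In the thiamine experiment SPNCRNA.1299 held 4765, 3930 and 3897 fragments in the libraries labelled Pnmt81-dis3, Pnmt81-dhp1 and Pnmt81-dhp1 Pnmt81-dis3, against 32 in WT. The log2 ratios were 6.78 (95% interval 6.30 to 7.35), 6.45 (5.97 to 7.02) and 6.71 (6.24 to 7.29), each from 1 library. SPRRNA.49 in the same libraries was 0.05, 0.64 and -2.07 from WT.

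The pac1 RNA itself was lower in pac1-ts at 30°C, with 124 and 121 CPM against 248 CPM in WT. At 37°C both clones were above WT, with 85.8 and 77.2 CPM against 69.0 CPM (log2 fold change 0.24, not called). In WT the pac1 RNA was lower at 37°C than at 30°C by 1.85 on the log2 scale (edgeR, adjusted p = 2.01e-06). In Pac1-AA it had 157 and 154 CPM against 97.0 and 94.2 CPM in CTL, which does not check the anchor-away, since that acts on where the protein is.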
